A study of Homo sapiens with 16 samples.

Results

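The genes described here are 9 chemokine genes that recruit neutrophils, monocytes and lymphocytes: CXCL1, CXCL2, CXCL3, CXCL5, CXCL8, CXCL16, CCL2, CCL5 and CCL20. They were chosen by symbol, and all 9 were found once in each count table among 58735 genes. Poly-A RNA was sequenced in 2 established lines of human triple-negative breast cancer, MDA-MB-231 and SUM159PT, both labelled as wild type. Cells were transfected by lipofection with sgNTS, a non-targeting guide RNA, or with sgYES1, a guide RNA against the Src-family kinase gene YES1, and were collected 48 h later. The 4 groups (MDA-MB-231 sgNTS, MDA-MB-231 sgYES1, SUM159PT sgNTS and SUM159PT sgYES1) had 4 libraries each, 16 in all. The submitters call the replicates technical, so p-values measure only the spread between these samples. The sources used here do not name the Cas protein, and they describe neither line as a clone.

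Chemokines are small secreted proteins that bind receptors on leukocytes and direct their movement along a gradient. CXCL1, CXCL2, CXCL3, CXCL5 and CXCL8 share an ELR sequence before the first cysteines and attract neutrophils through CXCR2, and CXCL8 (interleukin-8) also acts on CXCR1. CCL2 attracts monocytes through CCR2, CCL5 attracts T cells and monocytes, and CCL20 attracts lymphocytes and dendritic cells through CCR6. CXCL16 is made as a membrane protein that binds CXCR6 and is released by the proteases ADAM10 and ADAM17. Many of these genes are induced by interleukin-1, tumor necrosis factor and the transcription factor NF-kB, and breast cancers with a basal or mesenchymal character often make CXCL8.

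The 5 neutrophil chemokines lie on chromosome 4 (hg38) between position 73740506, the start of CXCL8, and position 74099293, the end of CXCL2, a span of 359 kb. CXCL1 (ENSG00000163739, plus strand, 73869393 to 73871242), CXCL2 (ENSG00000081041, minus strand, 74097035 to 74099293) and CXCL3 (ENSG00000163734, minus strand, 74036589 to 74038807) are close paralogs. In GENCODE 29 their coding sequences have 324 bases each, of which 34 differ between at least one pair of the 3. The stretch from base 229 to base 318 of the coding sequence held the most such differences, 17 of 90, and shows what a sequencing read can use to tell the genes apart. Capitals mark the bases at which the 3 genes are not all alike.
CXCL1: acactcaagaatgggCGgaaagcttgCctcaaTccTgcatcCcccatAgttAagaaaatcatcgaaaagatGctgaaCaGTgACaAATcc
CXCL2: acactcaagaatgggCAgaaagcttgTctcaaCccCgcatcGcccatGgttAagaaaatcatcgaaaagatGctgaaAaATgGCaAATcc
CXCL3: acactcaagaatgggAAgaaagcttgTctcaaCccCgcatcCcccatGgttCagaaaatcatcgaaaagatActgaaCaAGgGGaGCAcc

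Of the 50-base stretches in the transcripts of CXCL1, 4.81% also occurred in a transcript of another gene, all of them in CXCL2 or CXCL3. The share was 12.5% for CXCL2 and 6.01% for CXCL3. Of 100-base stretches, none of CXCL1 and 4.997% of CXCL2 and 3.27% of CXCL3 were shared. CXCL8, CCL2 and CCL20 had no shared stretch of 50 bases. The sources used here give neither the read length nor the treatment of reads with several matches, and part of the counts of CXCL2 and CXCL3 is uncertain for that reason.

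RefSeq (GRCh38.p14) promoter sequences were matched for 6 of the 9 genes: CXCL1, CXCL2, CXCL3, CXCL5, CXCL8 and CCL20. The 150 bases before each start are shown because 5 of these genes moved together in MDA-MB-231 and the sixth, CXCL5, was close to 0. Capitals mark the motifs searched, on both strands: GGGAA and CC with any 3 bases between them, and GGAATTTCC, which are forms of the site bound by NF-kB, and TGANTCA, the site bound by AP-1.
CXCL1, chr4:73869243-73869392, plus strand: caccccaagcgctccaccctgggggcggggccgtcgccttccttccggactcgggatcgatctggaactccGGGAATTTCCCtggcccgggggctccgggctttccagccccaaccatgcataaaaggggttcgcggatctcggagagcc
CXCL2, chr4:74099196-74099345, minus strand: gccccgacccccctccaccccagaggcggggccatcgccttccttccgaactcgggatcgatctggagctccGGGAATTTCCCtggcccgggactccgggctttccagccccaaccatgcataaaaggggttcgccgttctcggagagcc
CXCL3, chr4:74038690-74038839, minus strand: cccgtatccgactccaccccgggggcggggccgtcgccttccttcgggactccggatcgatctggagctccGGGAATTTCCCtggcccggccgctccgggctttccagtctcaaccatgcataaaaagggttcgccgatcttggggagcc
CXCL5, chr4:73998678-73998827, minus strand: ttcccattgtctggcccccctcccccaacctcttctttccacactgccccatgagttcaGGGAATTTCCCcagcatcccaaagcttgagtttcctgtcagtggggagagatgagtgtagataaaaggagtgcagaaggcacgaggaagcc
CXCL8, chr4:73740419-73740568, plus strand: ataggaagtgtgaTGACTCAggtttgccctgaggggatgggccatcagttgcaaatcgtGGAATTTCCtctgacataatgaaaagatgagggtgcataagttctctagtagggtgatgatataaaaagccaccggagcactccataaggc
CCL20, chr2:227813692-227813841, plus strand: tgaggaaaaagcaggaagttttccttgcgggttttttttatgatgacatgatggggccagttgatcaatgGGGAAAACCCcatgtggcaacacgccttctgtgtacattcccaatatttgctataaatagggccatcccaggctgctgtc

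CXCL1, CXCL2, CXCL3 and CXCL5 each held GGGAATTTCC, a match to the first motif that contains the second, beginning 79, 78, 79 and 91 bases before the start, and a match on the other strand lay 1 base further along. CXCL8 held GGAATTTCC beginning 91 bases before the start and TGACTCA beginning 137 bases before it. CCL20 held GGGAAAACCC, a match to the first motif only, beginning 80 bases before its RefSeq start. Among 35116 promoter windows of the same 150 bases, 3.79% held the first motif, 0.253% held GGAATTTCC and 4.17% held TGANTCA. The motifs were picked with the promoters and the expression results in view, and a match is a description of letters, not of binding. The upstream 150 bases of CXCL1 were 88.8% identical to those of CXCL2 and 88.1% identical to those of CXCL3, against 51.2% for CXCL5.

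Gene counts summed (in units of 1e6) to 17.2 to 25.1 per library in MDA-MB-231 and to 14.4 to 20.9 in SUM159PT. YES1 mRNA was 107 to 113 counts per 1e6 counts after TMM scaling (CPM, used below) in MDA-MB-231 sgNTS and 41.6 to 44.3 in sgYES1. In SUM159PT it was 89.4 to 97.9 and 38.3 to 40.2 CPM. The progesterone receptor gene PGR was at 0 in all groups and group means of the estrogen receptor gene ESR1 were 0.0484 to 0.259 CPM, while those of the receptor gene ERBB2 were 95.5 to 109 CPM. Group means of the mesenchymal marker VIM were 922 to 1675 CPM, and those of the epithelial keratins KRT8 and KRT18 were 605 to 879 and 168 to 299.999 CPM. MDA-MB-231 sgNTS replicate 4 stood apart from its group over all genes, with a chi-square per degree of freedom of 9.38 to 29.1 against replicates 1 to 3. Its share of mitochondrial counts was 2.34% against 3.81% to 5.15% in replicates 1 to 3. SUM159PT sgNTS replicate 2 stood apart less, with a chi-square per degree of freedom of 3.75 to 5.74 against the other replicates of its group, which had 2.33 to 2.87 among themselves. Values of that size also occurred with sgYES1, up to 6.24 in SUM159PT and 6.00 in MDA-MB-231.

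With the non-targeting guide, the lines made different sets of these chemokines. On a scale that allows comparison between genes, CPM per kilobase of gene length after scaling over all 16 libraries, CXCL8 was the highest in MDA-MB-231 sgNTS at 39.9 ± 1.36 (SD, n = 4). CXCL1 followed at 17.7 ± 1.12, CXCL2 at 11.8 ± 1.24 and CXCL3 at 2.93 ± 0.272. CXCL16 at 1.25 ± 0.147 and CCL5 at 1.12 ± 0.188 overlapped, as did CCL20 at 0.193 ± 0.0913 and CCL2 at 0.167 ± 0.0571. In SUM159PT sgNTS, CXCL8 at 44.4 ± 17.3 and CXCL2 at 42.5 ± 11.6 CPM per kilobase overlapped and led the order. CXCL16 at 5.22 ± 0.765 and CXCL3 at 5.18 ± 1.87 overlapped next, and the range of CXCL3 also overlapped that of CCL20 at 2.61 ± 1.11, followed by CCL5 at 0.0829 ± 0.0733.

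CXCL1 was the clearest difference between the lines. It had 422 to 578 counts in the MDA-MB-231 sgNTS libraries and 0 counts in each SUM159PT sgNTS library. A count of 0 over the 4 SUM159PT sgNTS libraries allows up to 0.0444 CPM (3 counts over the group, counting error only), so the CXCL1 level was at least 513-fold lower than the 22.7 CPM of MDA-MB-231 sgNTS, both taken over library totals. The same 4 SUM159PT libraries held 674 to 1298 counts of CXCL2 and 103 to 246 counts of CXCL3, none of which had been counted to CXCL1. With sgYES1, SUM159PT had 2 counts of CXCL1 over all 4 libraries.

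CCL2 had 29 counts over the MDA-MB-231 sgNTS group and 0 in SUM159PT, at least 7.68-fold lower by the same bound. CXCL5 had 1 count over the MDA-MB-231 sgNTS group and 0 in SUM159PT sgNTS, so both were under the floor. In the test between lines, 4 members were called higher in SUM159PT sgNTS and 2 lower, where 40.5% of 16640 tested genes were called higher and 41.3% lower (edgeR quasi-likelihood test, adjusted p under 0.05). CCL20 was 13.6-fold higher in SUM159PT (log2 3.76, SE 0.38), CXCL2 3.61-fold (log2 1.85, SE 0.13) and CXCL3 1.75-fold (log2 0.81, SE 0.17), and CXCL16 was higher by a log2 difference of 2.07 (SE 0.11). The MDA-MB-231 sgNTS libraries held only 4 to 9 counts of CCL20, which passed the filter through groups where it is higher. For that reason nothing is read from the count of higher calls. CCL5 was lower in SUM159PT, by a log2 difference of -3.57 (SE 0.39), and CXCL1 was the other lower call. Both had passed the filter through the MDA-MB-231 libraries, where they are high, and the CXCL1 call sets those against counts of 0, so nothing is read from the count of lower calls. CXCL8 was not called (log2 0.15, 95% interval -0.20 to 0.50, adjusted p = 0.42 in edgeR), although without SUM159PT sgNTS replicate 2 it was called higher (log2 0.35, adjusted p = 0.00598). The lines came in separate tables, and a difference between lines and one between the handling of their samples cannot be told apart.

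In MDA-MB-231, sgYES1 went with more mRNA of 7 of the 9 chemokines, by log2 fold changes of 0.48 (CXCL16) to 2.55 (CCL20). CXCL8 was at 94.7, 91.0, 93.8 and 87.8 CPM in sgNTS replicates 1 to 4 and at 295, 323, 273 and 273 CPM in sgYES1 replicates 1 to 4. Every sgYES1 library was at least 2.88 times as high as any sgNTS library. The fold change was 3.17 (log2 1.66, SE 0.05, edgeR adjusted p = 4.08e-11).

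CXCL1, the GRO-alpha chemokine, was at 24.1, 23.5, 24.2 and 21.1 CPM in sgNTS and at 112, 124, 96.1 and 104 CPM in sgYES1. The groups were far apart, with the lowest sgYES1 library 3.97 times the highest sgNTS library. It rose 4.69-fold (log2 2.23, SE 0.07, edgeR adjusted p = 6.11e-11). CXCL3, or GRO-gamma, was at 7.12, 5.83, 7.06 and 6.30 CPM in sgNTS and at 30.9, 32.8, 28.2 and 27.1 CPM in sgYES1, and rose 4.503-fold (log2 2.17, SE 0.09, adjusted p = 3.20e-10). CXCL2, or GRO-beta, was at 18.9, 16.7, 19.97 and 15.9 CPM in sgNTS and at 64.0, 65.9, 62.5 and 59.1 CPM in sgYES1, and rose 3.52-fold (log2 1.82, SE 0.07, adjusted p = 1.46e-10). None of these genes overlapped between groups. Counted as 1 gene, CXCL1, CXCL2 and CXCL3 together rose by a log2 change of 2.08 (edgeR adjusted p = 2.51e-11), which does not depend on how their reads were split.

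CCL20, the ligand of CCR6, was low in MDA-MB-231, with 4 to 9 counts per sgNTS library and 26 to 50 per sgYES1 library. That is 0.166, 0.265, 0.517 and 0.300 CPM against 1.70, 2.89, 1.26 and 1.46 CPM, with no overlap. It rose 5.87-fold (log2 2.55, SE 0.36, edgeR adjusted p = 6.44e-05), the largest fold of the 9 and the least precise, in a gene that passed the filter on low counts through its sgYES1 libraries. CCL5 was at 1.66, 2.12, 1.55 and 1.499 CPM in sgNTS and at 3.17, 2.83, 3.50 and 3.19 CPM in sgYES1. It rose 1.87-fold (log2 0.90, SE 0.16, adjusted p = 0.00037), again without overlap. AC015849.1, an antisense gene that overlaps CCL5, had 2 and 1 counts over the groups, and 6.29% of the 100-base stretches of CCL5 transcripts also occurred in other genes.

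CXCL16 changed least among the called genes. It was at 3.12, 4.08, 3.39 and 3.60 CPM in sgNTS and at 5.26, 4.56, 5.11 and 4.84 CPM in sgYES1. The lowest sgYES1 library was 1.12 times the highest sgNTS library. The rise was 1.40-fold (log2 0.48, SE 0.12, edgeR adjusted p = 0.0045). MED11, which overlaps CXCL16 on the other strand, had a log2 fold change of 0.01 (SE 0.10). ADAM17 rose (log2 0.47, SE 0.05) and ADAM10 had -0.03 (SE 0.05), values named, after they were seen, because both proteases release CXCL16.

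CCL2 and CXCL5 did not pass the filter on low counts in MDA-MB-231. CCL2 had 12, 6, 4 and 7 counts in sgNTS and 5, 12, 3 and 14 in sgYES1, so the groups overlapped. CXCL5, whose promoter window also holds GGGAATTTCC, had 1 count in sgNTS and 6 in sgYES1. Of the 9 members, 7 were called higher and 0 lower, where 20.8% of 15427 tested genes were called higher and 22.1% lower. With library totals as the only scaling, 3956 genes were called higher and 2661 lower, against 3205 and 3402 with TMM, and the 7 members were called higher under both. CXCL1, CXCL2, CXCL3, CXCL8 and CCL20 were called with at least 2-fold higher levels, as were 3.24% of tested genes. The same 7 members had no overlap between groups, which held in the higher direction for 18.8% of tested genes. The median log2 fold change of the 7 members tested was 1.82, against 0.01 over all tested genes. CCL20 is part of each of these counts and of the median. It passed the filter on low counts through its sgYES1 libraries, where it is higher, so nothing is read from its part in them.

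**Figure D1:**
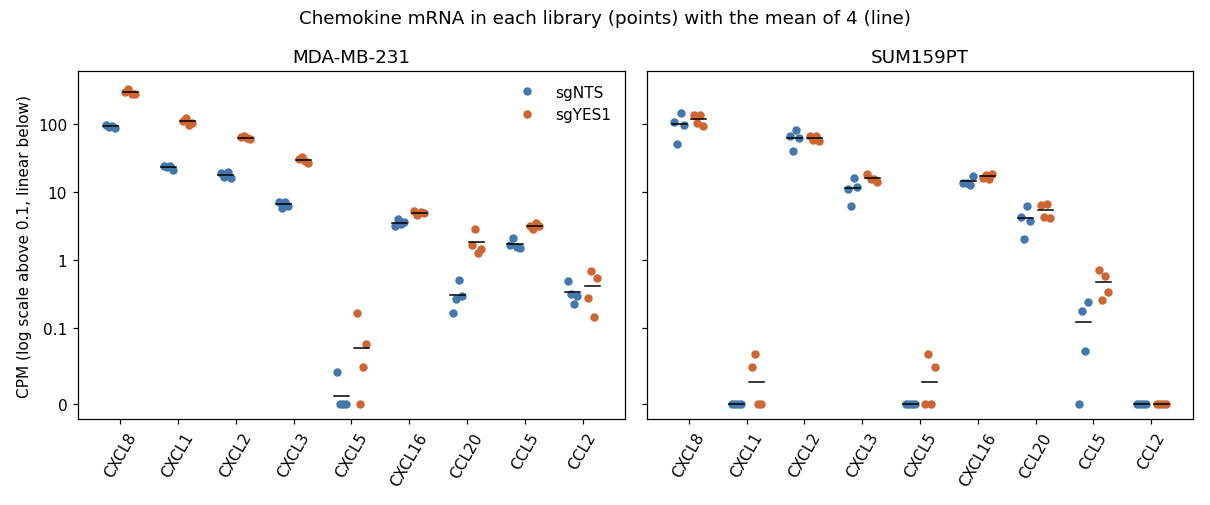
Chemokine mRNA in CPM (log scale above 0.1, linear below) for each library (points) and the mean of 4 libraries (black lines), with sgNTS in blue and sgYES1 in orange. In MDA-MB-231 the sgYES1 points of CXCL8 (273 to 323 CPM) lie above the sgNTS points (87.8 to 94.7 CPM), while in SUM159PT the groups overlap and CXCL1 and CCL2 lie at or near 0.

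Markers of other cell types were measured beside these results. The 22 leukocyte markers summed to 94.1 to 97.0 CPM over library totals in MDA-MB-231 sgNTS and to 87.9 to 98.4 CPM in sgYES1, most of it from LAPTM5 (87.7 CPM in sgNTS). The granulocyte genes CSF3R, MPO, S100A8 and S100A9 and the lymphocyte genes CD3E, CD2 and MS4A1 were at 0 in both groups. Of the 4 markers tested, CD14 (log2 1.19, SE 0.22), ITGAM (log2 1.90, SE 0.37) and CSF1R (log2 0.25) were called higher and LAPTM5 (log2 -0.16, SE 0.05) lower. ITGAM passed the filter on low counts through its sgYES1 libraries, where it is higher. The 8 endothelial markers summed to 106 to 113 CPM in sgNTS and 92.8 to 103 CPM in sgYES1, with ERG at 0 in sgNTS. Of the 3 tested, KDR (log2 0.73, SE 0.13) and PECAM1 (0.83, SE 0.29) were called higher and ESAM, which made up most of the sum, lower (-0.28, SE 0.04). The 8 fibroblast markers summed to 26.4 to 30.9 and 34.2 to 36.5 CPM, and of the 4 tested COL1A1 was called higher (0.45, SE 0.09). The part of these genes' cells in the chemokine results was not tested.

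In SUM159PT, 1 of the 5 chemokines tested was called higher, where 19.6% of all tested genes were called higher and 19.7% lower. The sgNTS libraries differed among themselves. CXCL8 was at 108, 49.9, 144 and 96.7 CPM in sgNTS replicates 1 to 4 and at 137, 103, 135 and 93.0 CPM in sgYES1. The sgYES1 values lay within the range of the sgNTS values. The log2 fold change was 0.24 (95% interval -0.13 to 0.61, edgeR adjusted p = 0.309).

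CXCL2 was at 66.4, 40.5, 82.1 and 62.8 CPM in sgNTS and at 66.9, 57.4, 65.8 and 56.7 CPM in sgYES1, with a log2 fold change of -0.02 (95% interval -0.28 to 0.23, edgeR adjusted p = 0.898). CXCL3 was at 11.1, 6.19, 16.1 and 11.9 CPM in sgNTS and at 18.5, 15.5, 15.5 and 13.8 CPM in sgYES1. It was the member called higher, 1.41-fold (log2 0.49, SE 0.16, adjusted p = 0.0209), although the highest sgNTS library lay above 3 of the 4 sgYES1 libraries. The call ended without sgNTS replicate 2 (log2 0.29, adjusted p = 0.0521), without sgNTS replicate 1 (0.48, adjusted p = 0.0505), without sgYES1 replicate 1 (0.40, adjusted p = 0.078) and in DESeq2 (0.48, adjusted p = 0.202).

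CCL20 was at 4.35, 2.04, 6.27 and 3.78 CPM in sgNTS and at 6.38, 4.28, 6.74 and 4.14 CPM in sgYES1 (log2 0.41, 95% interval -0.05 to 0.88, edgeR adjusted p = 0.153). In CXCL8, CXCL2, CXCL3 and CCL20 alike, sgNTS replicate 2 was the lowest and sgNTS replicate 3 the highest of its group. Without replicate 3, CXCL8 (log2 0.47, adjusted p = 0.0261) and CCL20 (log2 0.67, adjusted p = 0.0191) were called higher. CXCL16 did not follow that order, with 13.7, 13.7, 12.8 and 17.3 CPM in sgNTS and 16.3, 17.7, 15.6 and 18.5 CPM in sgYES1. Its log2 fold change was 0.23 (95% interval 0.03 to 0.43), with an edgeR adjusted p of 0.0594, and 0.34 without sgNTS replicate 4 (adjusted p = 0.00813).

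CCL5 had 0, 3, 1 and 5 counts in SUM159PT sgNTS and 15, 4, 10 and 7 in sgYES1 and did not pass the filter, nor did CXCL1, CXCL5 and CCL2. Scaled for depth, each sgYES1 value of CCL5 was above each sgNTS value (0.264 to 0.724 against 0 to 0.242 CPM), which held in the higher direction for 17.7% of tested genes. With no filter on low counts its log2 fold change was 1.81 (edgeR adjusted p = 0.0156), and in DESeq2 it was 1.90 (adjusted p = 0.0522). CXCL5 had 2 counts, both with sgYES1, and CCL2 had 0 in all 8 libraries. In all, 1 of the 5 members tested was called higher and 0 lower, where 19.6% of 14479 tested genes were called higher and 19.7% lower. That is near the share over all tested genes, and nothing is read from the count. The 22 leukocyte markers summed to 14.4 to 16.99 CPM in sgNTS and 10.8 to 17.8 CPM in sgYES1, with 10 at 0 in each group. Of the 2 tested, S100A9 was called higher (log2 2.60) and LAPTM5 lower (log2 -1.20), and S100A9 passed the filter through its sgYES1 libraries. Markers with counts that were not tested had these sums over sgNTS and sgYES1. CD14 had 6 and 54, S100A8 6 and 51, ITGAM 6 and 30, FCER1G 4 and 28, and ITGAX 9 and 23. CSF1R had 27 and 38, NKG7 3 and 5, PTPRC 16 and 16, CD68 3 and 2, and ELANE 39 and 24. Endothelial markers summed to 20.6 to 22.0 and 25.3 to 27.7 CPM (CDH5 and TEK at 0 in sgNTS), and of the 3 tested ERG was called higher (log2 0.42, SE 0.08). Fibroblast markers summed to 71.8 to 76.3 and 73.5 to 96.2 CPM (COL1A2 and LUM at 0 in sgNTS). Of the 5 tested, DCN (1.84, SE 0.21), PDGFRA (1.16, SE 0.22) and COL3A1 (0.73, SE 0.21) were called higher and 0 lower, and the part of these markers' cells was not tested.

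Whether the guide effects differed between the lines was tested by an interaction term fitted to the 16 libraries. The guide effect was smaller in SUM159PT for CXCL2 (log2 difference -1.85, SE 0.18, edgeR adjusted p = 3.26e-08), CXCL3 (-1.69, SE 0.22, adjusted p = 4.24e-06), CXCL8 (-1.44, SE 0.24, adjusted p = 6.73e-05) and CCL20 (-2.15, SE 0.51, adjusted p = 0.00272). These 4 members were called lower, as were 11.9% of 16640 tested genes. CXCL16 had a difference of -0.26 (95% interval -0.59 to 0.07, adjusted p = 0.252), so its effects were not shown to differ between the lines. For CCL5 the interval was wide (0.91, 95% interval -0.23 to 2.05, adjusted p = 0.247), with 9 and 36 counts over the SUM159PT groups. No difference is given for CXCL1, which SUM159PT did not express above the floor in either group, nor for CXCL5 and CCL2.

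**Figure D2:**
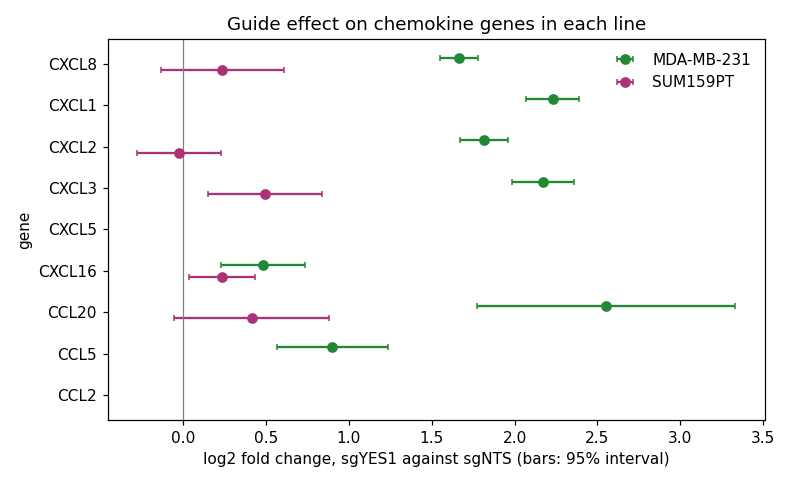
Log2 fold change of sgYES1 against sgNTS for each chemokine in MDA-MB-231 (green) and SUM159PT (purple), with 95% intervals from the edgeR fit of 4 against 4 libraries; genes that did not pass the filter have no point. The intervals of CXCL8, CXCL2, CXCL3 and CCL20 do not meet between the lines, and those of CXCL16 overlap.

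The make-up of the neutrophil chemokine counts was compared between guides. Of the summed counts of CXCL1, CXCL2, CXCL3, CXCL5 and CXCL8 in MDA-MB-231, CXCL8 took 65.9% ± 1.03 (SD, n = 4) in sgNTS and 59.1% ± 0.252 in sgYES1. The share of CXCL1 went from 16.6% ± 0.440 to 22.1% ± 0.804 and that of CXCL3 from 4.71% ± 0.304 to 6.03% ± 0.136, each without overlap between groups. CXCL2 kept to 12.8% ± 0.781 and 12.8% ± 0.624. In the exact two-sided permutation test the shares of CXCL1, CXCL3 and CXCL8 each gave p = 0.0286, the smallest that 4 against 4 libraries allow. Adjusted over the 7 shares tested in both lines it was 0.05, at the threshold and not under it.

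In SUM159PT, CXCL1 took no measurable share. CXCL2 made up 37.1% ± 3.43 of the counts in sgNTS and 32.0% ± 2.10 in sgYES1 (exact permutation p = 0.0571, adjusted 0.08). CXCL3 went from 6.50% ± 0.410 to 8.19% ± 0.700 (exact permutation p = 0.0286, adjusted 0.05), and CXCL8 had 56.4% ± 3.41 and 59.8% ± 2.56 (exact permutation p = 0.171, adjusted 0.2). Shares of a whole are tied to each other, and longer genes take more counts per transcript.

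**Figure D3:**
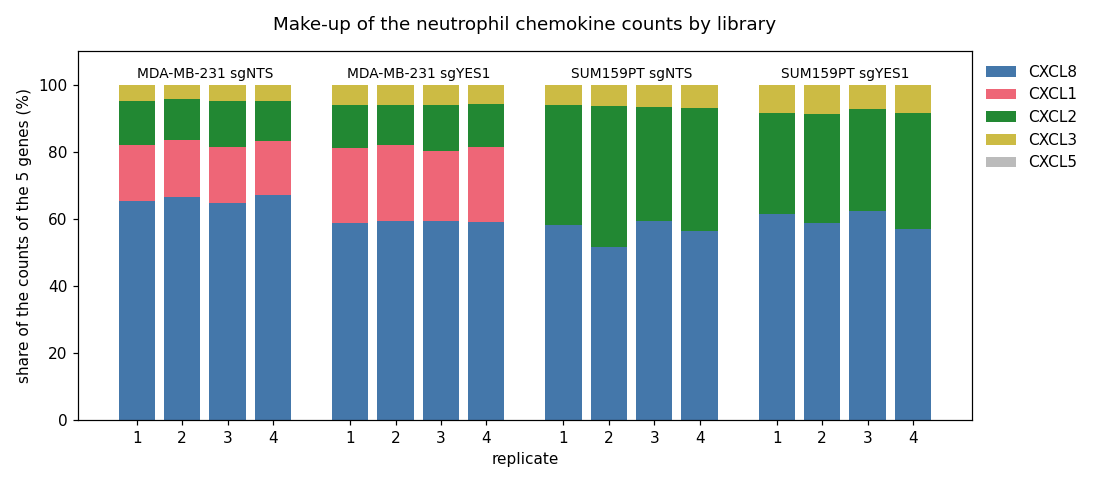
Share of the summed counts of the 5 neutrophil chemokine genes taken by each gene (percent), 1 bar per library, grouped by line and guide. CXCL1 makes up 16.1% to 17.2% in MDA-MB-231 sgNTS and 20.9% to 22.7% in sgYES1 and is not visible in SUM159PT, where CXCL2 makes up 30.1% to 41.9%.

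Neighbours of the cluster on chromosome 4 were compared next, within 500 kb on either side. The window held 18 protein-coding genes, 13 of them not among the members, and most of those were not expressed: CXCL6, PF4V1, PF4 and PPBP, which lie between the members and also encode chemokines, were under 0.2 CPM in every group. Of the 4 neighbours tested in MDA-MB-231, MTHFD2L, a mitochondrial folate enzyme gene that lies next to CXCL2, rose (log2 0.56, SE 0.08) and EREG, the epiregulin gene, rose (log2 0.54, SE 0.06). AREG, the amphiregulin gene, fell (log2 -0.26, SE 0.05) and ANKRD17 was not called (log2 0.05, SE 0.08). In SUM159PT none of the 5 tested neighbours was called, with log2 values from -0.47 (EPGN) to 0.04 (ANKRD17). Over all tested genes, 20.8% were called higher and 22.1% lower in MDA-MB-231, and 19.6% and 19.7% in SUM159PT. The neighbours were named for their position, after their values were seen.

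**Figure D4:**
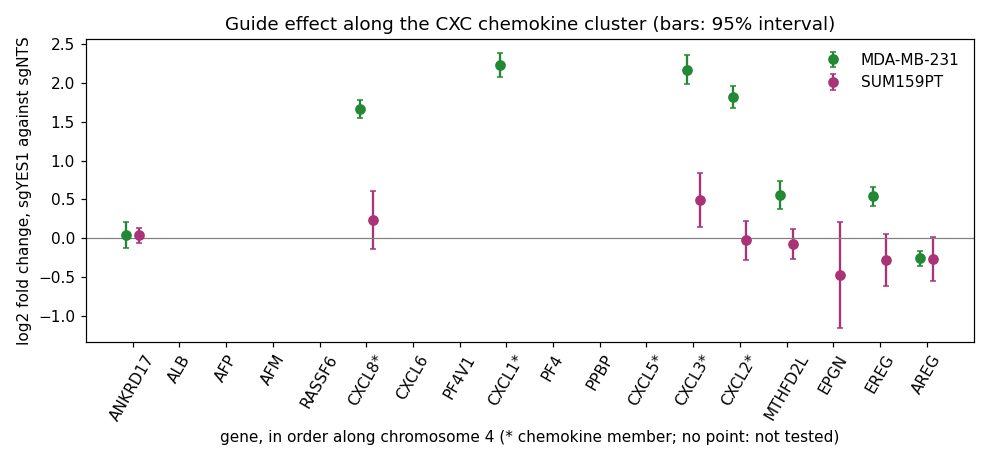
Log2 fold change of sgYES1 against sgNTS for the protein-coding genes in order along the chemokine cluster of chromosome 4, with members starred and bars for 95% intervals. In MDA-MB-231 (green) the tested members stand at 1.66 to 2.23 and the tested neighbours at -0.26 to 0.56.

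Signaling receptors of the neutrophil chemokines and of CCL20 were not detected, while the atypical receptor gene ACKR1, singled out after its values were seen, was at 19.6 ± 0.851 and 20.6 ± 1.09 CPM in SUM159PT sgNTS and sgYES1. CXCR1 and CXCR2, the receptors of the neutrophil chemokines, and CCR6, the receptor of CCL20, had 0 counts in all 16 libraries, which allows up to 0.0353 CPM in MDA-MB-231 sgNTS and 0.0444 CPM in SUM159PT sgNTS. CXCR6, the receptor of CXCL16, was at 0.739 ± 0.180 and 0.551 ± 0.195 CPM in MDA-MB-231 sgNTS and sgYES1. CCR2, the receptor of CCL2, had 6 counts over the MDA-MB-231 sgNTS group, 5 over the sgYES1 group and 0 in SUM159PT. Of 22 receptor genes, 5 were tested in MDA-MB-231. CXCR4, the receptor of CXCL12, fell from 9.14 ± 0.291 to 5.45 ± 0.482 CPM, CCR1 fell from 0.766 ± 0.219 to 0.362 ± 0.124 CPM, and the scavenging receptor gene ACKR3 rose from 1.38 ± 0.251 to 2.25 ± 0.448 CPM. CCR1 passed the filter on low counts through its sgNTS libraries, where it is higher. None of the 4 tested in SUM159PT was called. Over all tested genes, 20.8% were called higher and 22.1% lower in MDA-MB-231, and 19.6% and 19.7% in SUM159PT.

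Other chemokine ligands changed in single cases. Of 37 such genes, 6 were tested in MDA-MB-231 and 1 was called, where 20.8% of all tested genes were called higher and 22.1% lower. It was CCL3L1, which rose from 1.14 ± 0.222 to 2.75 ± 0.238 CPM and has near-identical paralogs. CXCL10 and CXCL11, the interferon-induced ligands of CXCR3, had log2 values of 0.26 (SE 0.21) and 0.18 (SE 0.17), were not called and were singled out after their values were seen. In SUM159PT the 1 gene tested was CXCL12, which rose from 7.13 ± 1.13 to 9.91 ± 1.05 CPM.

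Genes for cytokines that induce chemokines, and for their receptors, were compared with all tested genes. Those were called higher and lower in 20.8% and 22.1% in MDA-MB-231 and in 19.6% and 19.7% in SUM159PT. Of 19 inducing cytokines and receptors, 15 were tested in each line. In MDA-MB-231, 11 rose and 1 fell (median log2 0.36), while 9 rose and 0 fell in SUM159PT (median 0.22). Those tested in SUM159PT include IL1R2, named after its values were seen, with 34 counts over sgNTS and 236 over sgYES1. IL1R2 passed the filter on low counts through its sgYES1 libraries, where it is higher. IL1A, an alarm cytokine that induces CXCL8, rose in MDA-MB-231 from 3.10 ± 0.291 to 26.5 ± 3.27 CPM and in SUM159PT from 3.12 ± 1.49 to 6.17 ± 1.89 CPM, and the effects differed between lines (interaction -2.08, SE 0.31, edgeR adjusted p = 1.95e-05). CSF2, the growth factor of granulocytes and macrophages, rose from 16.99 ± 0.583 to 47.3 ± 1.94 CPM in MDA-MB-231 and was at 0.359 ± 0.172 and 0.318 ± 0.0515 CPM in SUM159PT. IL6 went from 13.1 ± 0.216 to 74.3 ± 6.65 CPM in MDA-MB-231 and from 10.4 ± 3.91 to 14.7 ± 3.21 CPM in SUM159PT. IL6 and CSF3 differed between lines in the same direction, with interaction values of -2.01 (SE 0.23) and -2.07 (SE 0.28). Of the 16 genes of this list in the interaction test, 9 were called lower in SUM159PT and 2 higher (median log2 -0.49). Over all tested genes 11.9% were called lower and 12.7% higher. Genes low in 1 line, such as IL1R2 and CSF2, entered that test through the groups where they are high.

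Of 20 NF-kB subunits and inhibitors, all tested, 13 rose and 2 fell in MDA-MB-231 (median log2 0.28), and 12 rose and 1 fell in SUM159PT (median 0.24). The shares of all tested genes called higher and lower were 20.8% and 22.1% in MDA-MB-231 and 19.6% and 19.7% in SUM159PT. The interaction test called the guide effect of 4 of the 20 lower in SUM159PT than in MDA-MB-231 and 1 higher (median log2 -0.05). Of all tested genes it called 11.9% lower and 12.7% higher. TNFAIP3, the deubiquitinase A20 that restrains NF-kB, rose in both lines, by log2 1.06 (SE 0.05) and 0.81 (SE 0.11), and no difference between lines was called (interaction -0.26, SE 0.15, edgeR adjusted p = 0.229). Its values were 34.2 ± 0.992 to 71.2 ± 3.44 CPM and 88.1 ± 21.8 to 154 ± 14.1 CPM. TNIP1, a partner of A20, rose by log2 0.64 (SE 0.03) and 0.20 (SE 0.06), and NFKBIA, the inhibitor IkB-alpha, by 0.52 (SE 0.04) and 0.24 (SE 0.07). TRAF1, an adaptor of tumor necrosis factor receptors, rose by 0.87 (SE 0.05) and 2.63 (SE 0.19).

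Of 11 AP-1 and C/EBP factor genes, 9 rose and 1 fell in MDA-MB-231 (median log2 0.56), and 3 rose and 4 fell in SUM159PT (median 0.00). Over all tested genes, 20.8% were called higher and 22.1% lower in MDA-MB-231, and 19.6% and 19.7% in SUM159PT. The interaction test called the guide effect of 6 of the 11 lower in SUM159PT than in MDA-MB-231 and 0 higher (median log2 -0.69). Of all tested genes it called 11.9% lower and 12.7% higher. FOSB rose in both lines (log2 2.38, SE 0.12, and 1.19, SE 0.11), ATF3 rose in MDA-MB-231 (1.54, SE 0.08), FOSL1 fell in both (-0.57, SE 0.03, and -0.49, SE 0.07), and JUND had 0.16 (SE 0.06) and -0.52 (SE 0.05), both called. Of 12 genes for AU-rich mRNA decay and stability, which act on chemokine transcripts, 1 rose and 4 fell in each line (medians -0.04 and -0.04). The one that rose was in both lines ZC3H12A, the endonuclease Regnase-1, with log2 fold changes of 1.74 (SE 0.07) and 0.96 (SE 0.09). ZFP36L1 and ZFP36L2, which promote decay of such transcripts, fell in SUM159PT (-0.60, SE 0.07, and -0.51, SE 0.06), and in MDA-MB-231 had 0.09 (SE 0.05), not called, and -0.18 (SE 0.06), called. KHSRP, another decay factor, fell in MDA-MB-231 (-0.18, SE 0.03).

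Genes for shedding, trimming and presentation moved in both directions. Of 11 tested in MDA-MB-231, 6 rose and 3 fell (median log2 0.38), and of 8 tested in SUM159PT, 3 rose and 2 fell (median 0.05). All tested genes had 20.8% called higher and 22.1% lower in MDA-MB-231, and 19.6% and 19.7% in SUM159PT. MMP1 and MMP14, matrix metalloproteinases, rose in MDA-MB-231 from 19.9 ± 1.53 to 37.2 ± 1.58 CPM and from 843 ± 19.8 to 1093 ± 23.2 CPM. SDC1 and SDC3, syndecans whose heparan sulfate can hold chemokines at the cell surface, fell in MDA-MB-231 (-0.52, SE 0.04, and -0.48, SE 0.04). In SUM159PT, SDC3 rose (0.24, SE 0.06) and SDC1 was not called (0.10, SE 0.06). Both differed between lines (interaction 0.60, SE 0.08, and 0.70, SE 0.08, for SDC1 and SDC3).

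**Figure D5:**
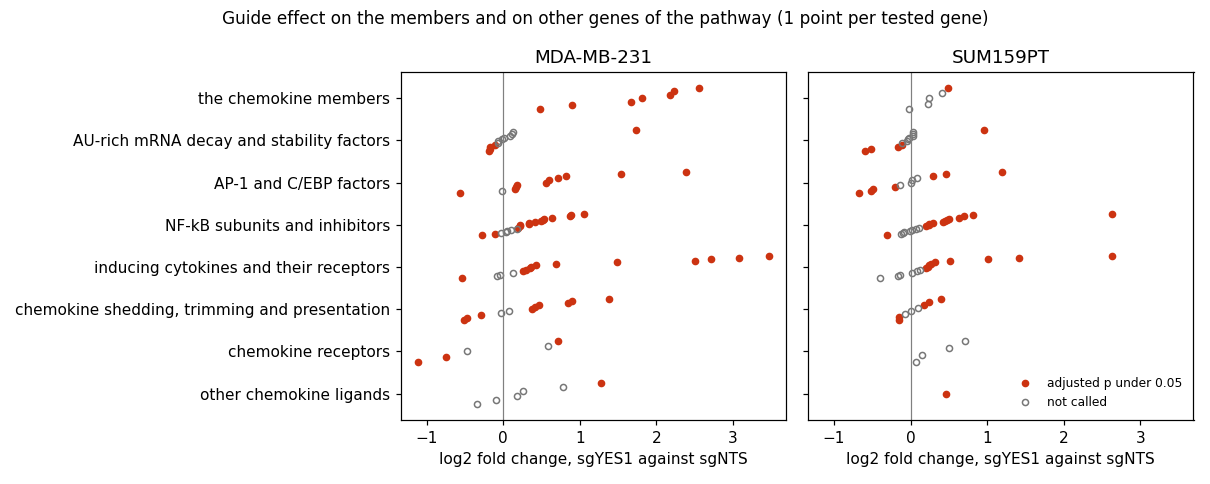
Log2 fold change of sgYES1 against sgNTS for every tested gene of each list (1 point per gene), with called genes filled and genes not called open, for MDA-MB-231 (left) and SUM159PT (right). In MDA-MB-231 the members reach 2.55, and the inducing cytokines reach 3.47 with CSF3.

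The genes whose pattern was most like that of CXCL8 were sought among 9512 protein-coding genes with at least 5 CPM on average in each line. Likeness was the Pearson correlation of log2 CPM over the 16 libraries after the mean of each line was taken away. The highest values were those of IL6 (0.979), PPP1R15A (0.971), TNIP1 (0.970), NFKBIA (0.962) and IER3 (0.960), over libraries that share the same guide contrast. A like search for CCL2 was not used, since CCL2 had 0 counts in SUM159PT.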

How the data were processed

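The authors deposited 1 table per cell line of raw counts per gene, whole numbers that had not been normalized. The submitters' processing notes name HISAT2 2.0.5, featureCounts 1.5.0-p3 and the build hg38. The sources used here do not give strand or multiple-match settings, and values of CXCL1, CXCL2 and CXCL3 are uncertain as far as they share sequence. Gene lengths in bases (another kind of value) were deposited with the counts.

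From these counts, filtered by filterByExpr at its settings of 10 (count) and 15 (total) and scaled by TMM, edgeR 4.0.16 (R 4.3.3) gave quasi-likelihood F-tests. The guide effect in each line used that line's 8 libraries, and the interaction and the contrast of the sgNTS groups used all 16. P-values were two-sided, adjusted by the Benjamini-Hochberg method over all tested genes and called under 0.05. SE and 95% intervals come from the F statistic, and the likeness to CXCL8 used log2 CPM with 2 as prior count. Shares were tested by exact permutation. Alternatives were DESeq2 1.42.0, other scalings, no filter, a replicate block, summed paralogs and leaving out each library. The code was tested on simulated data.

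The members and lists were chosen with earlier results of these data known. The genes named are the 9 members, from each list up to 4 called genes with the smallest p in either line, and the 5 genes most like CXCL8; others are said to be so. The values of 1 receptor gene are not reported here. Marker lists covered leukocytes, endothelial cells, fibroblasts and triple-negative lines. Within groups the chi-square per degree of freedom between any 2 libraries was 2.33 or more, above counting noise, and each library was counted as 1 replicate. Libraries held (in units of 1e6) 14.4 to 25.1 counts.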

Additional observations from a re-analysis of the deposited data

Results flagged for a closer look

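The guide effect differed between the lines for 4 chemokines by the interaction test. Taken as SUM159PT minus MDA-MB-231 on the log2 scale, the difference was -1.85 for CXCL2, -1.69 for CXCL3, -1.44 for CXCL8 and -2.15 for CCL20. All 4 were called under each of their 22 or 23 alternatives, with CXCL8 between -1.63 and -1.18 and CCL20 between -2.41 and -1.83. In a search for single libraries far from the rest of their group, 23 combinations of member and group with at least 1 CPM were examined and 0 were found, where chance would give about 1 in 20.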

How the results depend on the processing

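All 7 calls in MDA-MB-231 held under each alternative in which the gene had a value of its own. Log2 fold changes of CXCL8 were between 1.61 and 1.71, of CXCL1 between 2.16 and 2.29 and of CCL20 between 2.26 and 2.86. With CXCL1, CXCL2 and CXCL3 summed, 5 were called higher, with the sum counted as 1 of them. In SUM159PT, 1 member was called higher, against 0 in DESeq2 and with CXCL1, CXCL2 and CXCL3 summed, 2 with library totals as the only scaling or all 16 libraries in 1 fit, 4 with no filter on low counts, and 0 to 3 when 1 library was left out. With no filter CXCL8 was called there (log2 0.23, edgeR adjusted p = 0.000103), and the cause was not tested. The replicate block called 3 members in SUM159PT, adding CXCL16 and CCL20, and 7 in MDA-MB-231. With the block, CXCL8 in SUM159PT had a log2 fold change of 0.28 (edgeR adjusted p = 0.0568). Same-numbered libraries had correlations of -0.11 to 0.05 in their deviations from group means, taken over all tested genes. These cannot settle whether the numbers pair the libraries, since a pairing that touches few genes would not show. The contrast of both sgNTS groups was not run with a block, which lies within a line.

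CXCL2 in SUM159PT changed sign with library totals (log2 0.00237), and leaving out 1 library gave -0.19 to 0.13, with the sign changed in 4 cases (sgNTS replicate 1, 0.00284, and 3, 0.13, and sgYES1 replicate 2, 0.00789, and 4, 0.0239). Between lines in sgNTS, CXCL8 changed sign without SUM159PT sgNTS replicate 3 (-0.10, against 0.35 without replicate 2, the range when 1 library was left out), and was called without both libraries that stood apart (MDA-MB-231 sgNTS replicate 4 and SUM159PT sgNTS replicate 2), an alternative chosen after seeing the data (0.33, adjusted p = 0.007). With paralogs summed, 1 member was lower in SUM159PT sgNTS, since CXCL1 no longer had a value of its own. The share of CXCL2 in MDA-MB-231 differed by 0.0032 percentage points, by -0.537 with counts divided by length, and by -0.266 to 0.329 when 1 library was left out. The shares were not tested again with 1 library left out. Depth limits CCL2, CXCL5 and CCL5 in SUM159PT, which rest on few counts.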

Other observations

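The lines divided the CXCL12 and CXCR4 pair between them. MDA-MB-231 sgNTS had 9.14 ± 0.291 CPM of CXCR4 and 0 counts of CXCL12, and SUM159PT sgNTS had 0.0121 ± 0.0242 CPM of CXCR4, 1 count over the group, and 7.13 ± 1.13 CPM of CXCL12. With sgYES1, CXCR4 had 24 counts over the SUM159PT group (0.331 ± 0.146 CPM), and CXCL12 had 4 counts over the MDA-MB-231 group.

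ACKR1, the atypical receptor best known from red cells and venules, binds CXCL1, CXCL8, CCL2 and CCL5 without signaling through G proteins. It was at 19.6 ± 0.851 CPM in SUM159PT sgNTS and 20.6 ± 1.09 CPM in sgYES1, and had 1 count over the MDA-MB-231 sgNTS group and 0 over the sgYES1 group. The gene was singled out after its values were seen. SUM159PT is also the line without CXCL1 and CCL2 mRNA above the floor. Of the other ligands named, CXCL8 was at 44.4 ± 17.3 CPM per kilobase in SUM159PT sgNTS and 39.9 ± 1.36 in MDA-MB-231 sgNTS. CCL5 was at 0.0829 ± 0.0733 and 1.12 ± 0.188. Of the members not named here as ligands, CXCL2, CXCL3, CXCL16 and CCL20 were higher in SUM159PT sgNTS than in MDA-MB-231 sgNTS. CXCL5 was under the floor in both. A link between ACKR1 and any of these chemokines was not tested.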
